A study of Mus musculus with 15 samples.

Results

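Fos, Jun, Junb, Jund, Atf3, Egr1, Klf6, Ier2, Dusp1 and Dusp8 were taken as AP-1 and immediate-early response genes by a fixed list of symbols, and their transcripts were summed per gene. These 10 genes are 10 of the 35540 gene symbols in the liver data, and all 10 passed the filter on low counts. The genes were chosen by symbol with measured values in view, namely the differences between the genotypes in these data. Fold changes and adjusted p-values of the 10 genes in those comparisons therefore describe the fit and are no test of the genes as a group.

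The livers came from Txnip knockout (KO) mice, mice with the C247S change in TXNIP (C247S KI) and wild-type (WT) mice, 5 libraries each. Per the series' design text all 15 libraries share 8 weeks of high-fat diet, so no group was without that diet. TXNIP is the thioredoxin-interacting protein, and the question in the series' title is whether thioredoxin must be covalently bound to it for a diet to make the liver insulin resistant. Sex, age and strain of the mice, and how the knockout was made, are not stated in the labels. The numbers that open the sample titles run between 1176 and 1288 in KO, between 3082 and 3154 in C247S KI and between 3116 and 3121 in WT. The labels do not say what these numbers stand for, and anything that goes with them cannot be told apart from the KO genotype. Nor is it stated that every library is a different mouse, and a p-value then covers the spread among libraries, which may be technical.

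AP-1 is a dimeric transcription factor built from FOS, JUN and ATF proteins, which bind DNA through a basic region and pair through a leucine zipper. Immediate-early genes are switched on by growth factors, cytokines and stress without new protein synthesis, mostly through MAP kinases acting on factors that already sit at their promoters, and their mRNAs are short-lived. In liver they are known from regeneration after partial hepatectomy and from acute injury. DUSP phosphatases remove the activating phosphates from MAP kinases and so limit the response. Thioredoxin is known to bind and restrain the kinase ASK1, encoded by Map3k5, which acts upstream of JNK and p38.

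The summed estimated counts were 18047577 to 23379940 per library, and 13916 genes passed the filter. Txnip lay at 70.9 to 124 CPM (reads of a gene scaled to a common library size with TMM factors) in KO libraries, 99.9 to 280 in C247S KI and 180 to 320 in WT, so the KO libraries kept reads of the targeted gene (log2 -1.17, SE 0.24, edgeR adjusted p = 0.00887 in KO against WT). Hepatocyte markers were far above those of all other cell types in every library, and none of the 46 tested markers of 7 cell types was at 0 in any library. The summed hepatocyte markers were 50510 to 70100 CPM in KO, 69450 to 115200 in C247S KI and 82440 to 99170 in WT, with 1 of 6, Alb, called lower in KO than in WT. The other hepatocyte markers did not all follow the sum: in KO against WT 4 of 6 had a positive log2 fold change and 2 a negative one (median 0.05). In KO against C247S KI 2 were positive and 4 negative (median -0.06), with 1 called lower. Stellate cell markers summed to 175 to 405 CPM in KO, 316 to 503 in C247S KI and 431 to 505 in WT, with 1 of 8 called lower in KO than in WT. Cholangiocyte markers summed to 25.7 to 38.7 CPM in KO, 46.7 to 123 in C247S KI and 35.3 to 53.8 in WT, and 2 of 6 were called lower in KO than in C247S KI. The sums of sinusoidal endothelial, Kupffer, neutrophil and lymphocyte markers overlapped between all groups. Of the endothelial markers 2 of 8, Lyve1 and Pecam1, were called lower in KO than in WT and 1 of 8, Lyve1, lower than in C247S KI, and of the lymphocyte markers 1 of 4, Ms4a1, was called lower in KO than in WT. A clock index, the mean log2 CPM of 5 clock genes less that of 4 others, was 3.92 to 4.51 in KO, 1.78 to 3.28 in C247S KI and 2.63 to 3.70 in WT, with no overlap between KO and the rest. The part of the cell markers in the results was not tested, and the index entered 1 alternative fit as a covariate. In bulk tissue, fewer cells of a type and less RNA per cell cannot be told apart.

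The 10 genes did not move as a block. In KO against WT livers Dusp8, Atf3 and Klf6 were lower and Ier2 was higher by edgeR, while Fos, Jun, Junb, Jund, Egr1 and Dusp1 did not pass an adjusted p of 0.05. Among all genes tested 4.19% were called lower and 2.56% higher in that comparison, 6.75% in all. The median log2 fold change of the 10 genes was -0.16, with 5 negative and 5 positive, against -0.01 over all genes. Between C247S KI and WT 0 of the 10 passed with edgeR or DESeq2, and 3 (Jund, Atf3 and Egr1) had an unadjusted edgeR p under 0.05, as did 9.85% of all genes. Of all genes 0.0216% were called lower, 0.0647% higher and 0.0862% in either direction there. Against C247S KI, KO livers had lower Dusp8 and Klf6 and higher Ier2, with 5.85% of all genes called lower, 4.41% higher and 10.3% in either direction.

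**Figure D1:**
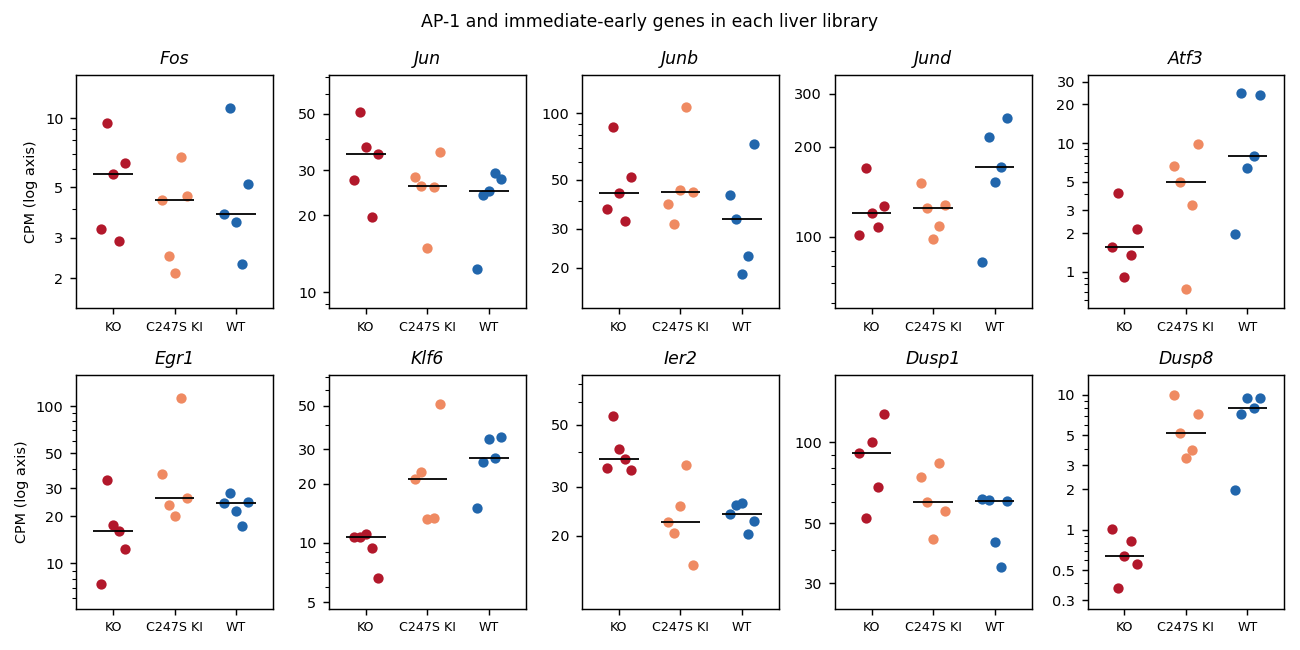
CPM of each of the 10 genes on a log axis, with 1 point per library and a bar at the group median, for KO, C247S KI and WT (n = 5 each). All KO points of Dusp8 (0.370 to 1.01 CPM) and Klf6 (6.61 to 11.1 CPM) sit below the points of both other groups, and all KO points of Ier2 (34.3 to 53.8 CPM) sit above those of WT.

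Dusp8, a phosphatase of JNK and p38 (ENSMUSG00000037887, chr7:142079490-142095843 in GRCm38), showed the widest separation of the 10. Its 5 KO libraries held 1.01, 0.370, 0.642, 0.829 and 0.559 CPM, against 10.1, 5.25, 3.42, 3.88 and 7.23 CPM in C247S KI and 1.97, 7.23, 9.56, 7.97 and 9.41 CPM in WT. Every KO library lay below every other library, and WT 1 was the low one of its group. These are low counts, 8 to 20 per KO library against 60 to 231 in C247S KI and 38 to 198 in WT. The log2 fold change was -3.40 (SE 0.42, 10.6-fold lower, edgeR adjusted p = 0.000333) in KO against WT and -3.13 (SE 0.42, 8.78-fold lower, edgeR adjusted p = 0.000286) in KO against C247S KI. C247S KI and WT overlapped, and their log2 difference was -0.27 (SE 0.35, edgeR adjusted p = 0.817).

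Klf6, a zinc-finger transcription factor induced in injured liver (ENSMUSG00000000078, chr13:5861482-5870394), was also lower in all KO libraries than in all others. It stood at 10.7, 10.7, 11.1, 9.38 and 6.61 CPM in KO, 21.3, 23.0, 13.3, 13.4 and 51.3 CPM in C247S KI and 15.01, 25.8, 33.9, 27.0 and 34.7 CPM in WT. The KO libraries were tightly grouped, with a coefficient of variation of 19.1%, whereas C247S KI 5 stood far above the rest of its group. Klf6 fell by 1.49 on the log2 scale against WT (SE 0.32, edgeR adjusted p = 0.0118) and by 1.34 against C247S KI (SE 0.32, edgeR adjusted p = 0.0150). Without C247S KI 5 the second value was -0.87 and still passed (edgeR adjusted p = 0.0388). With the clock index as a covariate both calls were lost, at -1.63 (edgeR adjusted p = 0.0913) and -1.50 (edgeR adjusted p = 0.200).

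Atf3, a stress-induced repressor that pairs with JUN proteins (ENSMUSG00000026628, chr1:191170296-191218039), was at 1.56, 4.11, 0.918, 1.35 and 2.14 CPM in KO, 6.62, 5.01, 0.741, 3.32 and 9.86 CPM in C247S KI and 1.97, 24.4, 6.37, 7.97 and 23.6 CPM in WT. Its groups overlapped: WT 1 lay within the KO range and C247S KI 3 lay below every KO library. No gene of the 10 varied more within C247S KI and WT by the ratio of the highest to the lowest library, 13.3-fold and 12.4-fold. The log2 difference of Atf3 between KO and WT was -2.67 (SE 0.65, edgeR adjusted p = 0.0206). That call was lost without KO 3 (edgeR adjusted p = 0.0560), without KO 4 (0.0518), without WT 2 (0.0519), with limma-voom (log2 -2.37, adjusted p = 0.0932) and with the clock index, where the difference was larger with a larger error (log2 -3.22, SE 0.88, edgeR adjusted p = 0.0665). C247S KI lay between, at -1.32 against WT (SE 0.60, edgeR adjusted p = 0.497), and KO was at -1.35 against C247S KI (SE 0.64, edgeR adjusted p = 0.187), so neither step passed.

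The promoters of the genes that fell, and that of Dusp1 for comparison with Dusp8, are printed from the RefSeq promoter table (GRCm38.p6), 5′ to 3′ on the gene's strand, ending before the first transcribed base annotated for the main transcript. Capitals mark matches, on either strand, to the cAMP response element (CRE, TGACGTCA), the AP-1 element (TRE, TGACTCA), the E-box CACGTG, the GC box GGGCGG and TATAAA. Dusp8 is chr7:142095285-142095534 (minus strand), Klf6 is chr13:5861239-5861481 (plus), Atf3 is chr1:191183341-191183583 (minus) and Dusp1 is chr17:26508520-26508722 (minus).
Dusp8: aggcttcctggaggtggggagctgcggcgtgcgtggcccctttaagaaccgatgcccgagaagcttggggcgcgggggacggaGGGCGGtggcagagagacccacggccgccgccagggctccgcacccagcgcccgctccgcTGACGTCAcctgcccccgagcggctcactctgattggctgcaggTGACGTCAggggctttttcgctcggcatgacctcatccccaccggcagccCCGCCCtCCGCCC
Klf6: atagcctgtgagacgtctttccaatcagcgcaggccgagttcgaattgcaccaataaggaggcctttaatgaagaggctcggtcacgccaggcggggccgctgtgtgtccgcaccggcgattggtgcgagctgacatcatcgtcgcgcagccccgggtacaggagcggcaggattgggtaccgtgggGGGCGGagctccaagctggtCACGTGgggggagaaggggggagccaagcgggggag
Atf3: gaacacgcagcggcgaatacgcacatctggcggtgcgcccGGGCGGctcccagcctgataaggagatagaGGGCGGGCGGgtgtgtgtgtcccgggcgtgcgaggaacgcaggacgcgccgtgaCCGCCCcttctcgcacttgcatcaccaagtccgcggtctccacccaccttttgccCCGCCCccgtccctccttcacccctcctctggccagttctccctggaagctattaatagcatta
Dusp1: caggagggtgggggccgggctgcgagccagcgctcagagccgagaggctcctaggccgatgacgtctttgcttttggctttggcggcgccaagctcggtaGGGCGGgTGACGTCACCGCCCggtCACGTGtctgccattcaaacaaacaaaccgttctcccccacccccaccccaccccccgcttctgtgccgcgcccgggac

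Of the 10 genes 8 had a window in that table, each of 300 bases around the start, and Egr1 and Ier2 were not matched. Each window covers 250 bases before the RefSeq start and 50 after it. Sites further out, CArG boxes among them, were not searched. The Jund window lies around a RefSeq start 1210 bases from the start of its only counted transcript and does not cover that transcript's start. The CRE letters stood in 2 of the 8 windows, at -107 to -100 and -63 to -56 from the RefSeq start in Dusp8 and at -143 to -136 in Dusp1, and in 1.79% of all 32851 windows. The TRE letters were in 0 of the 8 windows and in 5.20% of all, and the CArG box, the site of serum response factor, in 0 of the 8 and 1.63% of all. GC boxes were in 6 of the 8 windows and in 35.7% of all, and E-boxes in those of Klf6 and Dusp1 and in 7.15% of all. A match is a description of letters, and the CRE and GC-box matches of Dusp1 abut each other. Overlapping GC boxes were found in Atf3, and the other matches printed in capitals did not overlap.

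Ier2, a nuclear protein of the early growth response (ENSMUSG00000053560, chr8:84661331-84662852), went the other way. Its level was 35.0, 53.8, 41.0, 37.6 and 34.3 CPM in KO, 22.5, 20.5, 25.7, 35.96 and 15.7 CPM in C247S KI and 24.0, 25.8, 26.3, 20.4 and 22.6 CPM in WT. All KO libraries were above all WT libraries, and C247S KI 4 alone of the other groups reached into the KO range. Ier2 rose by 0.76 on the log2 scale against WT (SE 0.18, edgeR adjusted p = 0.0174) and by 0.75 against C247S KI (SE 0.18, edgeR adjusted p = 0.0142). The call against WT was lost without KO 2 (0.65, edgeR adjusted p = 0.0553) and without WT 4 (0.72, edgeR adjusted p = 0.0524). Its log2 difference between C247S KI and WT was 0.01 (SE 0.18).

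Dusp1, the phosphatase that is itself an immediate-early gene and acts on p38, JNK and ERK (ENSMUSG00000024190, chr17:26505590-26562128), leaned the same way as Ier2 without passing. KO libraries held 91.4, 52.2, 100.1, 68.2 and 127 CPM, against 74.6, 60.1, 43.6, 84.0 and 55.6 CPM in C247S KI and 61.7, 61.1, 42.9, 34.5 and 60.4 CPM in WT. In 4 of 5 KO libraries Dusp1 was above every WT library, the exception being KO 2, which was the highest KO library for 7 of the other genes. The log2 difference was 0.75 in KO against WT (SE 0.23, edgeR adjusted p = 0.0587), and it passed with DESeq2 (adjusted p = 0.0211), without KO 2 (0.91, edgeR adjusted p = 0.0337), without C247S KI 3 (edgeR adjusted p = 0.0424) and with WT 1 and C247S KI 3 and 5 left out together (0.0423). KO 2 was the lowest KO library of Dusp1 and WT 1 the highest WT library, so leaving out either widens this difference by construction. In KO against C247S KI the log2 difference of Dusp1 was 0.47 (SE 0.23, edgeR adjusted p = 0.203). Dusp1 and Dusp8, phosphatases of the same family, had differences of opposite sign in KO against WT. The Dusp1 transcripts that overlap Ergic1, a gene on the other strand, held 0.01% of Dusp1 counts.

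Egr1, a zinc-finger factor induced through the ERK pathway (ENSMUSG00000038418, chr18:34859823-34864984), was at 7.36, 33.8, 17.6, 16.2 and 12.3 CPM in KO, 37.1, 23.5, 20.02, 113 and 26.0 CPM in C247S KI and 24.1, 28.2, 21.4, 17.2 and 24.7 CPM in WT. Its coefficient of variation was 57.1% in KO and 89.0% in C247S KI, against 17.8% in WT, whose libraries were close together. C247S KI 4 was over 3 times its nearest neighbour. The log2 difference was -1.33 in KO against C247S KI (SE 0.43, edgeR adjusted p = 0.0607), where 4 of 5 KO libraries lay below all C247S KI libraries. Without C247S KI 4 it was -0.61 (SE 0.31, edgeR adjusted p = 0.228). It passed with DESeq2 (adjusted p = 0.0498), with no count filter (0.0490), without KO 2 (0.0317), without C247S KI 2 (0.0469), without C247S KI 3 (0.0263) and with WT 1 and C247S KI 3 and 5 left out together (0.0265). KO 2 was the highest KO library of Egr1 and C247S KI 3 the lowest of its group, so leaving out either widens this difference by construction. With the clock index the difference was -0.06 (edgeR adjusted p = 0.974). Between C247S KI and WT it was 0.92 (SE 0.43, edgeR adjusted p = 0.505), and 0.20 without C247S KI 4. In KO against WT it was -0.41 (SE 0.43, edgeR adjusted p = 0.616).

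Jund, the JUN protein that is made constitutively and not only on stimulation (ENSMUSG00000071076, chr8:70698949-70700616), held 102, 170, 120.0, 108 and 127 CPM in KO, 151, 124, 98.7, 109 and 127 CPM in C247S KI and 82.4, 216, 153, 171 and 249 CPM in WT. WT 1 was the lowest of all 15 libraries and WT 5 the highest. The log2 difference was -0.47 in KO against WT (SE 0.23, edgeR adjusted p = 0.216), and without WT 1 it was -0.64 and passed (edgeR adjusted p = 0.0365), as it did with WT 1 and C247S KI 3 and 5 left out together (0.0249). Both of these fits drop the lowest WT library of Jund, so they are not separate support. Between C247S KI and WT the log2 difference was -0.51 (SE 0.23, edgeR adjusted p = 0.485), and between KO and C247S KI 0.04 (SE 0.22, edgeR adjusted p = 0.935).

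Fos, the classic partner of JUN proteins (ENSMUSG00000021250, chr12:85473890-85477273), overlapped between all groups, at 2.90 to 9.48 CPM in KO, 2.11 to 6.74 in C247S KI and 2.31 to 11.1 in WT. Its log2 difference in KO against WT was 0.09 with an SE of 0.41, and it was below 0 without KO 2 (-0.18), without WT 3 (-0.02) and without WT 4 (-0.09), so no direction can be given. Jun (ENSMUSG00000052684, chr4:95049034-95052222) was at 19.7 to 51.0 CPM in KO, 14.9 to 35.6 in C247S KI and 12.3 to 29.3 in WT, a log2 difference of 0.53 in KO against WT (SE 0.26, edgeR adjusted p = 0.233) with 3 of 5 KO libraries above all WT libraries. Junb, which can oppose JUN (ENSMUSG00000052837, chr8:84974484-84978718), ranged over 32.6 to 87.1 CPM in KO, 31.6 to 107 in C247S KI and 18.7 to 72.5 in WT, with a log2 difference of 0.41 in KO against WT (SE 0.38). The Junb transcript that overlaps Prdx2, on the other strand, held 0.01% of Junb counts.

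**Figure D2:**
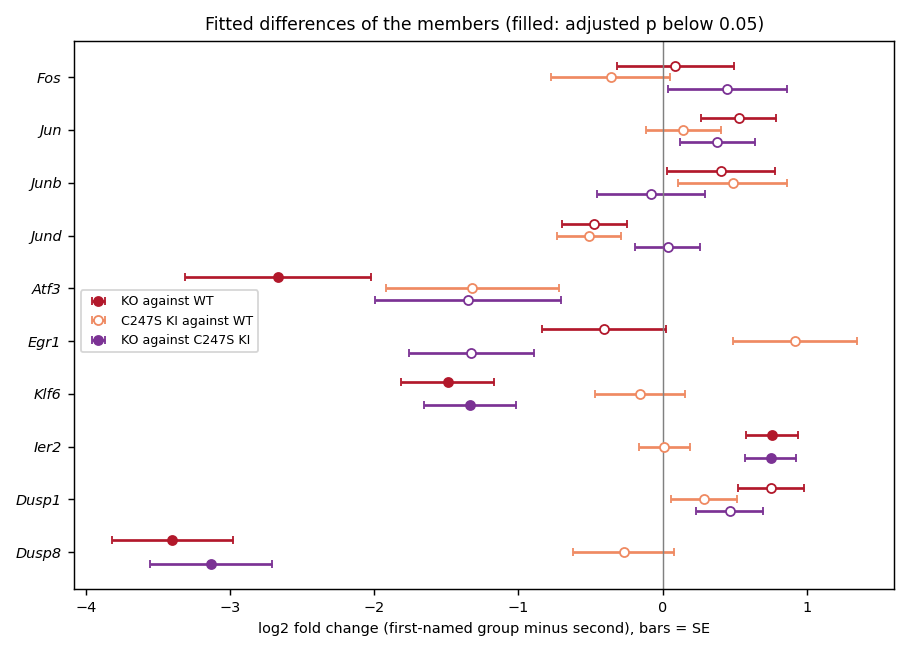
Log2 fold changes from the edgeR fit, with SE as bars, for the 10 genes in KO against WT, C247S KI against WT and KO against C247S KI. Filled points passed an adjusted p of 0.05: Dusp8, Atf3, Klf6 and Ier2 in KO against WT, and Dusp8, Klf6 and Ier2 in KO against C247S KI.

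By groups that do not overlap at all, Dusp8 and Klf6 were lower and Ier2 higher in KO than in WT, where 5.09% of all genes were entirely lower and 4.51% entirely higher, 9.60% in all. Dusp8 and Klf6 were entirely lower in KO than in C247S KI as well, and 0 of the 10 entirely higher, beside 4.94% of all genes lower, 4.73% higher and 9.67% in either direction. For all 10 genes the libraries of C247S KI and WT overlapped, and 1.32% of all genes separated in either direction there. The comparisons share libraries: KO against WT and KO against C247S KI use the same KO libraries.

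Per length, in TPM (transcript reads scaled by transcript length and library total), Jund led in every group at 109 ± 20.2 in KO, 119 ± 37.2 in C247S KI and 170 ± 74.6 in WT (SD, n = 5 each). Dusp1, Junb and Ier2 followed in that order in each group, at 68.3, 40.1 and 38.3 TPM in KO, 54.2, 46.1 and 24.5 in C247S KI and 44.2, 34.0 and 24.9 in WT. The library ranges of Dusp1 and Junb, and of Junb and Ier2, overlapped in each group, so their order is not fixed. Jund stood clear of Dusp1 in C247S KI and WT but its range overlapped that of Dusp1 in KO. Dusp8 was the lowest in every group, at 0.237 ± 0.0930 TPM in KO, 2.09 ± 1.18 in C247S KI and 2.56 ± 1.27 in WT (SD, n = 5 each), and only in KO did its range lie clear of the next gene, Atf3. Atf3 stood at 1.80 ± 0.837 TPM in KO and 11.03 ± 9.28 TPM in WT (SD, n = 5 each), and its range overlapped those of its neighbours Klf6 in KO and Klf6 and Egr1 in WT.

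Within a genotype, some libraries were the highest or the lowest for several of the genes. KO 2 was the highest KO library for Fos, Jun, Junb, Jund, Atf3, Egr1 and Ier2, and the lowest for Dusp1 and Dusp8. C247S KI 3 was the lowest of its group for 8 genes, all but Junb and Ier2. C247S KI 4 was the highest for Fos, Junb, Egr1, Ier2 and Dusp1, whereas C247S KI 5 was the highest for Jun, Atf3 and Klf6. WT 1 was the lowest for Jun, Jund, Atf3, Klf6 and Dusp8, yet the highest for Dusp1.

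**Figure D3:**
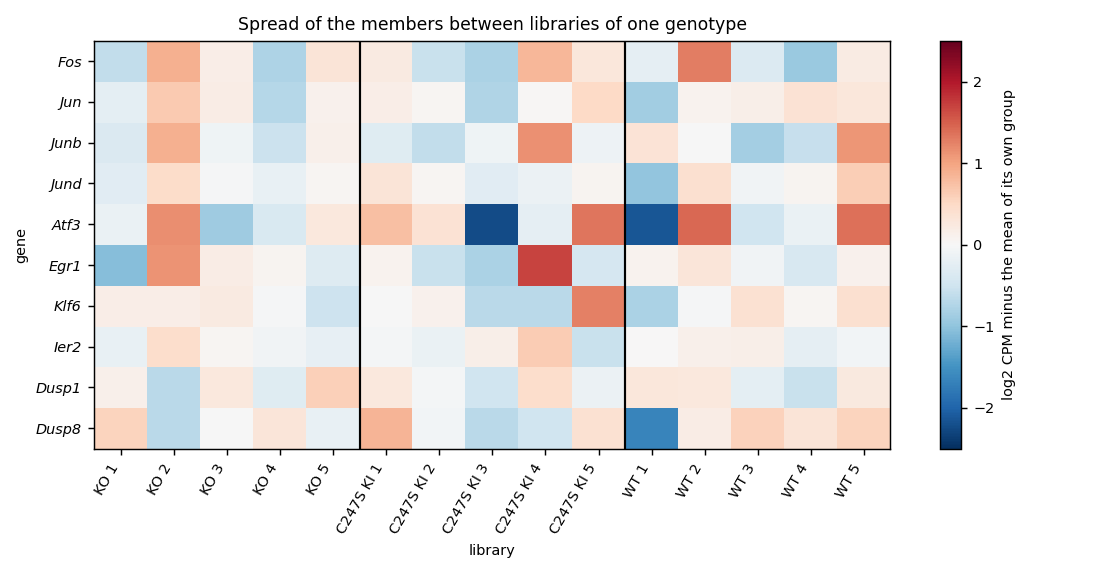
Log2 CPM of each gene in each library minus the mean of the library's own group, so that differences between genotypes are removed. Atf3 shows the widest spread, with C247S KI 3 and WT 1 lowest, and Egr1 and Junb stand out in C247S KI 4.

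As a description over the 15 libraries after removal of the group means, Jund and Atf3 had the most alike profiles (Pearson r = 0.85), then Jun with Jund (0.77), Egr1 with Ier2 (0.77) and Jun with Atf3 (0.77). Klf6 and Ier2 ran most apart (r = -0.52). Against the mean of the other 9 genes, Atf3, Fos and Jund had r of 0.76, 0.75 and 0.72, and Dusp8, Ier2 and Dusp1 had 0.19, 0.10 and 0.10. These points share library depth and scaling, and genes measured in the same libraries are not independent. Outside the list, the 5 genes whose profile over the 15 libraries was most like the mean of the 10 were Utp14b (r = 0.91), Fam193a (0.88), Prr14 (0.85), Abcc6 (0.85) and Sf1 (0.85).

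Single transcripts carried almost all counts of most of these genes: Jun, Jund, Egr1 and Ier2 have 1 transcript in the table, and the main transcript held 97.2% of Fos, 98.0% of Klf6 and 99.4% of Dusp8 counts. Atf3 and Dusp1 were the exceptions. The Atf3 transcript from the upstream start, Atf3-203, begins 34706 bases from the RefSeq start and held 7.47% of all Atf3 counts. It was at 0 in 4 of 5 KO libraries, 3 of 5 C247S KI and 2 of 5 WT libraries, but took all 13 Atf3 counts of C247S KI 3, 22 of 38 in WT 1 and 63 of 138 in WT 4. The retained-intron transcript Dusp1-203 took 19.9 ± 7.19% of Dusp1 counts in C247S KI, against 8.26 ± 4.79% in WT (SD, n = 5 each). The ranges of 12.2% to 30.1% in C247S KI and 3.69% to 14.0% in WT overlapped, and KO was at 7.70 ± 6.23%. A transcript's share of its gene is not what chose the genes, so the 5 transcripts with 5% to 95% of their gene's counts were tested in the 3 comparisons with exact two-sided permutation tests. Dusp1-203 had exact p = 0.0238 in C247S KI against WT and exact p = 0.0397 in KO against C247S KI, both 0.298 after Benjamini-Hochberg adjustment over the 15 tests, so no share passed. The smallest p that 5 against 5 libraries allow is 0.00794, which for a single transcript adjusts to 0.119 over 15 tests, so 1 shifted share alone could not have passed.

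Related genes outside the 10 are described from 6 lists, chosen with earlier results of these data known. Counts and medians of these lists are therefore a description and no test of the lists. Among 12 tested AP-1 and small Maf partners, 3 were lower and 0 higher in KO than in WT, beside 4.19% of all genes lower: Maff, a small Maf protein (-1.02, SE 0.22, 11.4 ± 1.45 CPM in KO and 23.1 ± 3.22 in WT, SD, n = 5 each, edgeR adjusted p = 0.0118), Fosl2 (-0.74, adjusted p = 0.0330) and Fosb (-1.91, adjusted p = 0.0449), both FOS relatives. Fosb was low, at 0.273 CPM in KO and 1.04 CPM in WT, and lost its call without any 1 of KO 1, 2, 3, 4 or 5 or of WT 2, 3 or 5 (edgeR adjusted p of up to 0.0985), with limma-voom (adjusted p = 0.0763) and with the replicate number as a block (edgeR adjusted p = 0.0542). Fosl2 lost its call without any 1 of KO 2 to 5 or of WT 2, 4 or 5 (edgeR adjusted p of up to 0.0943). Against C247S KI, Fosl2 was the 1 of 12 that passed, at -0.89 (SE 0.20, edgeR adjusted p = 0.00946), beside 5.85% of all genes lower. Of the 12, 2 passed without C247S KI 2 or WT 1, 4 without C247S KI 3, 3 with DESeq2 and 0 with the clock index. Without C247S KI 3 the genes called lower among all genes also rose, from 814 to 1241. C247S KI against WT had 0 of the 12 passing with edgeR or DESeq2 and 1 with an unadjusted edgeR p under 0.05 (9.85% of all genes), that of Atf7 being the lowest (0.37, edgeR adjusted p = 0.433). The median of this list in KO against WT was -0.09, against -0.01 over all genes.

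Of 34 other immediate-early genes tested, 8 were lower and 1 higher in KO than in WT, beside 4.19% of all genes lower and 2.56% higher. There were 4 lower without KO 1 or KO 2, 5 without KO 5, WT 2 or WT 3, and 3 with the clock index, and 2 higher without KO 1 or WT 5. Btg1, an inhibitor of proliferation, was at 29.9 ± 4.08 CPM in KO and 48.6 ± 5.28 in WT (SD, n = 5 each; log2 -0.70, edgeR adjusted p = 0.00386). Nr4a3, an orphan nuclear receptor, had a log2 fold change of -3.07 (edgeR adjusted p = 0.00680), but at 0.107 CPM in KO and 0.941 in WT the size is uncertain. Ier5 fell by 0.73 on the log2 scale (edgeR adjusted p = 0.00714). Csrnp1, a nuclear protein, was the 1 higher (0.89, SE 0.18, edgeR adjusted p = 0.00891, named after its values were seen), and like Ier2 it had no overlap between KO and WT. Against C247S KI 5 were lower and 2 higher in KO (5.85% and 4.41% of all genes), with 3 and 0 without C247S KI 5 and 1 and 0 with the clock index, and 1 higher without any 1 of KO 1, 2 or 5, C247S KI 1 to 4 or WT 3 or 5. The lowest p-values were those of Btg2 (-1.53, SE 0.19, 21.3 ± 3.42 CPM in KO and 61.8 ± 18.8 in C247S KI, edgeR adjusted p = 0.000216), Btg1 (-0.54) and Nr4a3 (-2.62, -1.999 without C247S KI 1, and not passing with limma-voom, adjusted p = 0.0533). C247S KI against WT had 0 of the 34 passing with edgeR or DESeq2, and 2 with an unadjusted edgeR p under 0.05, beside 9.85% of all genes. The lowest p there was that of Btg2 (0.59, SE 0.19, edgeR adjusted p = 0.340).

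Among other dual-specificity phosphatases, 2 of 9 tested were lower in KO than in WT (4.19% of all genes), Dusp14 (-1.39, SE 0.29, 1.94 CPM in KO and 5.10 in WT, edgeR adjusted p = 0.00924) and Dusp3 (-0.42, adjusted p = 0.0243). All 9 had a negative log2 change, with a median of -0.40. Dusp3 lost its call without any 1 of KO 2 to 5 or WT 2 to 5 (edgeR adjusted p of up to 0.0825). Dusp14 was as low in C247S KI, 2.01 CPM, with a log2 difference of -1.33 from WT that did not pass with edgeR (adjusted p = 0.120) and did with DESeq2 (adjusted p = 0.00325). In that comparison 0 of the 9 passed with edgeR and 3 had an unadjusted p under 0.05, beside 9.85% of all genes. Against C247S KI Dusp3 was the 1 of 9 that passed (-0.43, edgeR adjusted p = 0.0163), beside 5.85% of all genes lower. It lost its call without any 1 of KO 2, 3 or 4 or C247S KI 1 (edgeR adjusted p of up to 0.0611). Of the 9, 2 passed without C247S KI 3 and 0 with the clock index.

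Of 11 SRF, ternary complex factor, CREB and NAB genes, which act on immediate-early promoters, 0 passed in any comparison with edgeR, and 2, 0 and 2 had an unadjusted p under 0.05 in KO against WT, C247S KI against WT and KO against C247S KI, beside 23.3%, 9.85% and 27.0% of all genes. Mrtfb, a coactivator of SRF, was lowest in p in KO against WT (-0.67, SE 0.23, edgeR adjusted p = 0.0794) and the 1 that DESeq2 called there (adjusted p = 0.0411). With WT 1 and C247S KI 3 and 5 left out together edgeR called 1 lower in each KO comparison, Mrtfb against WT and Crem against C247S KI, and without C247S KI 2 it called 1 lower against C247S KI. Crem had the lowest p in KO against C247S KI (-0.47, edgeR adjusted p = 0.117) and Elk4 in C247S KI against WT (0.26, edgeR adjusted p = 0.557). In the MAP kinase cascade 2 of 17 were lower in KO than in WT (4.19% of all genes; 4 of 17 without C247S KI 3, and 1 higher without C247S KI 4): Map3k6, the ASK2 kinase (-1.37, SE 0.22, 4.63 ± 1.59 CPM in KO and 11.9 ± 1.96 in WT, SD, n = 5 each, edgeR adjusted p = 0.00228), and Mapkapk2, a kinase downstream of p38 (-0.78, SE 0.11, edgeR adjusted p = 0.000946). Against C247S KI 4 were lower and 3 higher in KO, with Map3k6 (-1.67), Map3k1 (-1.18) and Mapkapk2 (-0.66) leading in p, beside 5.85% of all genes lower and 4.41% higher. The 3 higher, named after their values were seen, were Map2k6 (0.93, edgeR adjusted p = 0.00979), Map2k2 (0.45) and Map2k3 (0.43). Map2k6 was at 13.6 CPM in KO, 7.10 in C247S KI and 13.9 in WT. Of the 17 genes, 0 were lower and 0 higher against C247S KI with the clock index, and 3 lower and 1 higher without KO 4, C247S KI 1 or C247S KI 5. An unadjusted edgeR p under 0.05 was seen for 7 of the 17 in KO against WT and 11 in KO against C247S KI. The shares of all genes were 23.3% and 27.0%. Between C247S KI and WT 4 of the 17 had one, beside 9.85% of all genes. There 0 of the 17 passed with edgeR, and Map2k6, which activates p38, had the lowest p (-0.96, edgeR adjusted p = 0.120). It passed without C247S KI 1 (-1.19, edgeR adjusted p = 0.0220) and with DESeq2 (adjusted p = 0.00664). Map3k5, which encodes ASK1, did not pass in any of the comparisons. Its log2 difference was -0.23 in KO against WT (edgeR adjusted p = 0.372) and -0.14 in KO against C247S KI (0.569). In C247S KI against WT it was -0.09 (edgeR adjusted p = 0.854).

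Genes known as AP-1 targets had the lowest median of the 6 lists in KO against WT, -0.65, with 5 of 15 lower, 0 higher and all 15 negative, beside 4.19% of all genes called lower and a median of -0.01. In the same comparison 8 of 8 stellate cell markers (median -0.38), 8 of 8 Kupffer cell markers (median -0.35) and 4 of 4 tested lymphocyte markers (median -0.88) were negative. In C247S KI against WT the medians of these marker lists, in the same order, were -0.145, -0.79 and -0.56, beside 0.00 for the targets. In KO against C247S KI they were -0.25, 0.43 (8 of 8 positive) and -0.48, beside -0.81 for the targets. The part of these markers in the AP-1 target values was not tested. In KO against WT the count of targets called lower was 3 without KO 2, 3 or 5 or WT 3 or 4, and 3 with the clock index. Ccnd1, cyclin D1, fell to 11.6 ± 1.55 CPM in KO, against 31.8 ± 8.38 in WT (SD, n = 5 each; log2 -1.46, edgeR adjusted p = 0.000416). Plaur, the urokinase receptor, was at 1.34 CPM in KO and 3.60 in WT (-1.42, edgeR adjusted p = 0.00169), and Cxcl1, a neutrophil chemokine, at 3.80 CPM in KO and 28.5 in WT (-2.90, edgeR adjusted p = 0.0151; 0.0759 with limma-voom). The WT libraries of Cxcl1 had an SD of 30.5 CPM, and without WT 5 its log2 fold change was -2.01 (edgeR adjusted p = 0.0369). Against C247S KI 5 of the 15 were lower and 0 higher, beside 5.85% and 4.41% of all genes. Among the 5 were Plaur (-1.37), Ccnd1 (-1.08) and Spp1, osteopontin (-1.48). With the clock index 1 of the 15 was lower there. Spp1 is also on the cholangiocyte marker list, whose sums did not overlap between KO and C247S KI. Between C247S KI and WT 0 of the 15 passed with edgeR or DESeq2, 1 had an unadjusted edgeR p under 0.05 (9.85% of all genes) and the median was 0.00, and Spp1 had the lowest p (0.86, edgeR adjusted p = 0.330).

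With the clock index as a covariate, 21 of 32 calls no longer passed and 0 changed sign. The 32 were calls of the 10 genes, of list genes named by lowest p and of Csrnp1 in KO against WT. Over all genes calls fell too, from 583 lower and 356 higher to 204 and 82 in KO against WT. In KO against C247S KI they fell from 814 and 613 to 102 and 30, so the loss was not particular to these genes. The log2 fold change was as large or larger in 9 of the 21 and smaller in 12, and the SE was 1.31 to 1.70 times as large. Those in KO against WT with a fold change as large or larger were Atf3, Klf6, Fosb (-1.93), Ier5 (-0.78), Dusp14 (-1.48) and Csrnp1 (0.97, edgeR adjusted p = 0.0611), and those with a smaller one were Fosl2 (-0.53), Btg1 (-0.62), Dusp3 (-0.35), Map3k6 (-1.16) and Cxcl1 (-1.94). In KO against C247S KI the fold change was as large or larger for Klf6, Map3k1 (-1.20) and Ccnd1 (-1.27), and smaller for Fosl2 (-0.60), Btg1 (-0.42), Btg2 (-1.18), Dusp3 (-0.33), Map3k6 (-1.38), Mapkapk2 (-0.46) and Plaur (-1.33). The index did not overlap between KO and the other libraries, so its part and that of the genotype cannot be told apart.

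**Figure D4:**
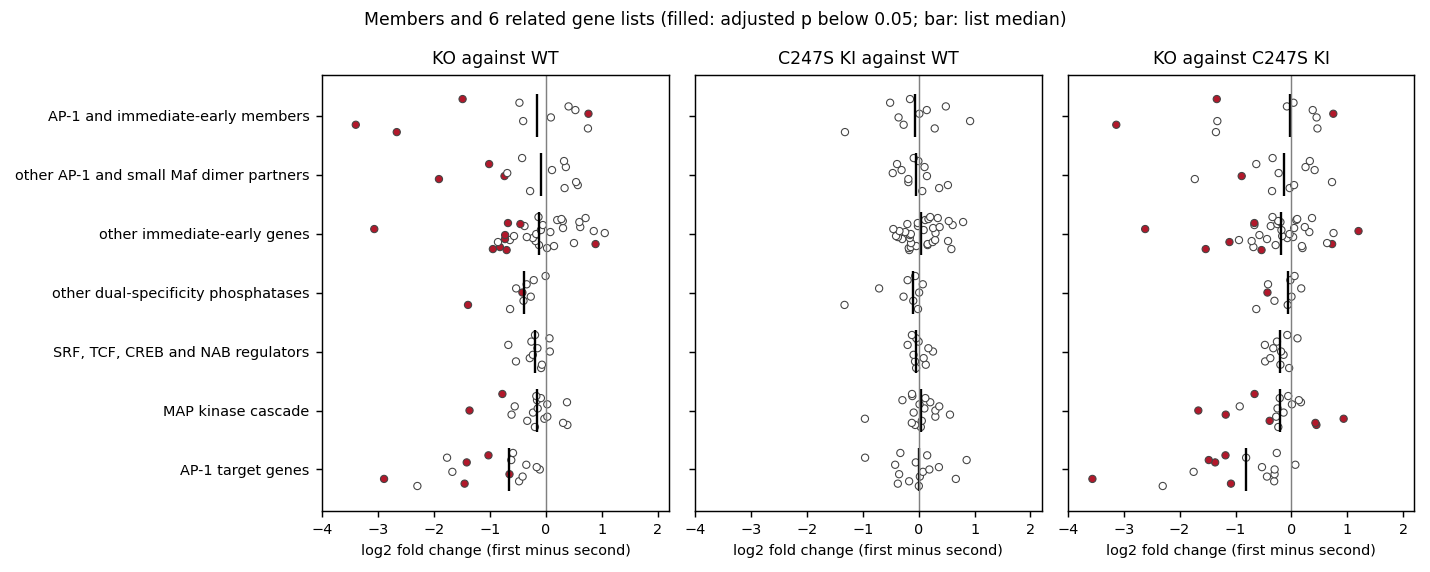
Log2 fold changes of the 10 genes and of the tested members of 6 related lists in the 3 comparisons, with 1 point per gene, filled where the edgeR adjusted p was below 0.05, and a bar at the list median. The AP-1 targets lie furthest left in KO against WT (median -0.65) and in KO against C247S KI (median -0.81), and no point is filled in C247S KI against WT.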

How the data were processed

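Bulk RNA of 15 mouse liver libraries was analysed, 5 per genotype by the sample titles. Values are the authors' estimated counts for each transcript, already whole numbers so that rounding changed none, made with Trimmomatic 0.39 and kallisto 0.50.1 per the submitters' processing notes, which also name mm10 and DESeq2. kallisto divides shared reads among transcripts, so near-identical copies are uncertain. Neither the transcript set nor the strand setting is stated.

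Identifiers without version matched GENCODE M21 for 114331 of 115911 transcripts (98.64%). Unmatched ones held 0.366% to 0.459% of a library's counts and were left out. Counts were summed per symbol to 35540 genes. filterByExpr (minimum count 10, total 15) kept 13916. One fit of all 15 libraries with edgeR 4.0.16 in R 4.3.3 used TMM factors, group means and the quasi-likelihood test, with Benjamini-Hochberg adjustment over all 13916 genes and a threshold of 0.05. SE is the log2 fold change over the root of F. Log2 CPM used a prior count of 2, and TPM used annotated transcript lengths. The procedure was tested on simulated data, in which genes varied independently of each other. Libraries that stand apart over many genes were not simulated, so that test does not cover them. At this depth counting error matters mainly for Dusp8, Fosb and Nr4a3, and also for Atf3. Atf3 had 20 to 89 counts per KO library and 13 in C247S KI 3.

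The 10 genes and all lists were chosen with earlier results of these data known. Named were all 10 genes, per list and comparison up to 3 called genes with the lowest p or else the 1 with the lowest p, and the 5 genes of at least 1 CPM most like the mean profile. No pair of libraries within a group was a duplicate: their chi-square divided by its degrees of freedom was 22.8 to 368.5 (30 pairs). Alternatives were RLE and upper-quartile factors, DESeq2 1.42.0, limma-voom (limma 3.58.1), no filter on counts, a minimum mean count of 50, a fit of only the 2 groups, the replicate number as block, a clock index covariate, leaving out each library, and leaving out WT 1, C247S KI 3 and C247S KI 5 together. WT 1 was the lowest library of its group for 5 of the 10 genes and C247S KI 3 for 8. Leaving them out therefore raises the group means of those genes by construction. WT 1 was the highest of its group for Dusp1, and C247S KI 5 for Jun, Atf3 and Klf6. Leaving these out lowers the group means there. Python 3.11.15 and matplotlib 3.10.9 were used for exact tests and figures.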

Additional observations from a re-analysis of the deposited data

Results flagged for a closer look

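In each of 30 groups of 5 libraries (10 genes in 3 genotypes) the gap between the highest or lowest library and its neighbour was compared with the range of the group, and 3 passed Dixon's critical value. For independent, normally distributed values chance gives about 1 in 20 groups. CPM was not put on a log scale here, and Junb and Egr1 had like profiles over the libraries (Pearson r = 0.68). That rate may therefore not hold. All 3 that passed were the highest of the C247S KI libraries. Junb was at 107 CPM in C247S KI 4, against 31.6 to 44.9 CPM in the other 4. Egr1 was at 113 CPM in the same library, against 20.02 to 37.1 CPM. Klf6 was at 51.3 CPM in C247S KI 5, against 13.3 to 23.0 CPM. C247S KI 4 also had the lowest clock index of the 15 libraries, 1.78, and whether that bears on Junb or Egr1 was not tested.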

How the results depend on the processing

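Over 62 log2 fold changes (30 of the 10 genes and 32 of list genes named by lowest p) and their alternatives, 1446 of 1545 values kept direction and side of the threshold, 58 lost the threshold, 18 gained it and 23 changed sign. Dusp8 kept its calls in KO against WT and in KO against C247S KI in all 25 alternatives, and Ier2 in all 25 for KO against C247S KI (highest adjusted p 0.0498). Signs changed only where no call was made. With the clock index these were Fos (-0.019) and Egr1 (0.30) in KO against WT, Ier2 (-0.17) in C247S KI against WT, and Junb (0.89) and Jund (-0.084) in KO against C247S KI. Ier2 in C247S KI against WT also did so with limma-voom (-0.044) and the replicate block (-0.015), and with WT 1 and C247S KI 3 and 5 left out together Fos in KO against WT (-0.005) and Jund in KO against C247S KI (-0.038) did. Leaving out 1 library gave -0.18 to 0.59 for Fos in KO against WT. In C247S KI against WT it gave -0.62 to 0.14 for Fos, -0.014 to 0.30 for Jun, -0.62 to 0.012 for Klf6 and -0.18 to 0.14 for Ier2. In KO against C247S KI it gave -0.36 to 0.35 for Junb and -0.087 to 0.13 for Jund.

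Of the 10 genes, 3 were lower and 1 higher in KO against WT. With the clock index 1 was lower, and with DESeq2 and without those 3 libraries 2 were higher. Leaving out 1 library gave 2 to 4 lower and 0 to 2 higher. Against C247S KI 2 were lower, 1 with the clock index and 2 to 3 with a library left out, and 1 was higher throughout. For C247S KI against WT 0 passed in every alternative. Over all genes in KO against WT, 583 were lower and 356 higher: DESeq2 called 895 and 610, the clock index fit 204 and 82, the fit without those 3 libraries 899 and 643, the fit of only the 2 groups 542 higher, and fits without 1 library 335 to 765 lower and 165 to 494 higher. For C247S KI against WT, 3 were lower and 9 higher, and 1371 had an unadjusted p under 0.05: DESeq2 called 17 and 48, limma-voom 1 lower, only the 2 groups 1 and 5, the replicate block 1 and 5, no count filter 17 higher, the clock index 22 higher, and fits without 1 library 1 to 5 lower and 3 to 19 higher. For KO against C247S KI, 814 were lower and 613 higher: 102 and 30 with the clock index, and 475 to 1241 lower and 302 to 1031 higher without 1 library. The cause of these shifts was not tested. AP-1 targets lower in KO against WT numbered 3 to 9 over the alternatives, other immediate-early genes 3 to 9.

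The replicate numbers share only a number: same-numbered libraries of 2 groups correlated at -0.14 to 0.38 after removal of group means, and 3 of 15 matched best with their own number. The replicate block moved no count of the 10 genes. Counts of 8 to 20 per KO library limit the size of the Dusp8 difference.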
